A study of Drosophila melanogaster with 12 samples.

Results

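The cuticle protein genes of Drosophila melanogaster were examined in eye discs of wandering larvae, the sheets of epithelium that form the compound eye. Members were the gene rows whose symbol begins with Lcp or Twdl, or with Cpr and a digit, and there were 110 of them among 15904 rows. They fell into 5 rows of the Lcp genes on chromosome 2R, 10 of the Lcp65A genes, 25 of the Twdl (Tweedle) genes and 70 of the Cpr genes. The authors' program left 51 of the 110 untested in all 6 comparisons of the groups.

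The 12 samples, each of RNA from 30 disc pairs, formed 4 groups of 3, and the question of the study was how hsrω, a long noncoding RNA, alters the response to activated Ras. All larvae were in the w1118 background and carried sev-GAL4 with UAS-GFP; sev-GAL4 drives transgenes only in the sevenless-expressing cells of the disc, while the RNA came from whole discs. The EP3037 group carried EP3037 with UAS-RasV12, a constitutively active Ras, and is labelled as having raised hsrω. The RNAi group carried UAS-hsrωRNAi with UAS-RasV12 and is labelled as having lowered hsrω. The Ras group carried UAS-RasV12 with the allele dco2. The control carried dco2 over a wild-type chromosome and no RasV12. Because dco2 is listed for the Ras group and the control but not for the EP3037 and RNAi groups, a difference between these pairs of groups cannot be told apart from one of dco2.

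Insect cuticle is a layered sheet of chitin fibres and proteins that the epidermis secretes on its apical side, and a new one is laid down at each moult under the control of the steroid hormone ecdysone. Lcp1 to Lcp4 were named as larval cuticle proteins of the last larval instar. The Lcp65A genes are a tandem family of larval cuticle proteins, and most Cpr proteins carry the Rebers and Riddiford consensus, which binds chitin. Tweedle proteins form a separate family whose founding mutations change body shape. Disc cells themselves secrete cuticle after the larva becomes a prepupa.

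Each level is the FPKM (fragments scaled to transcript length and to the mapped fragments of the library) that the authors deposited, 1 pooled value per gene and group. No value per sample, SD or depth is therefore given beside a level, and the order of the groups can be read against replicate error only through the authors' Cuffdiff test. A member is called when that test ran and its q was at or under 0.05; "rose" and "fell" are used of called members only. The RNAi group entered that test with 4 inputs, 1 of its 3 samples being listed as 2, so p and q in the 3 comparisons with RNAi may be too small. No label tells whether samples in a group are separate crosses, and these p-values measure only the spread between samples, which may be technical. In the authors' deposited tables Hsromega, the hsrω gene, stood at 606 FPKM in the EP3037 group, 398 in the RNAi group, 389 in the Ras group and 543 in the control, with p = 0.486 for EP3037 over Ras and p = 0.966 for RNAi over Ras. The label of lowered hsrω was thus not visible in whole discs. Eye disc markers were present throughout: the 9 markers ey, so, eya, dac, gl, sev, ato, elav and lz summed to 458 FPKM in the EP3037 group, 539 in the RNAi group, 461 in the Ras group and 447 in the control.

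Most cuticle genes were low in these discs. Of 110 rows, 8 were listed at 0 in every group, 65 stayed below 1 FPKM in every group and 45 reached 1 FPKM in at least 1 group. At 10 FPKM or more in some group stood 7 rows: Lcp1, Lcp4, the row Lcp9,egg, TwdlE, TwdlT, Cpr49Ac and Cpr51A. The number of rows at 1 FPKM or more was 37 in the EP3037 group, 33 in the RNAi group, 39 in the Ras group and 30 in the control. Among the 45 expressed rows the highest and lowest groups differed by less than 2-fold in 21 and by at least 5-fold, or with a group listed at 0, in 11.

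**Figure D1:**
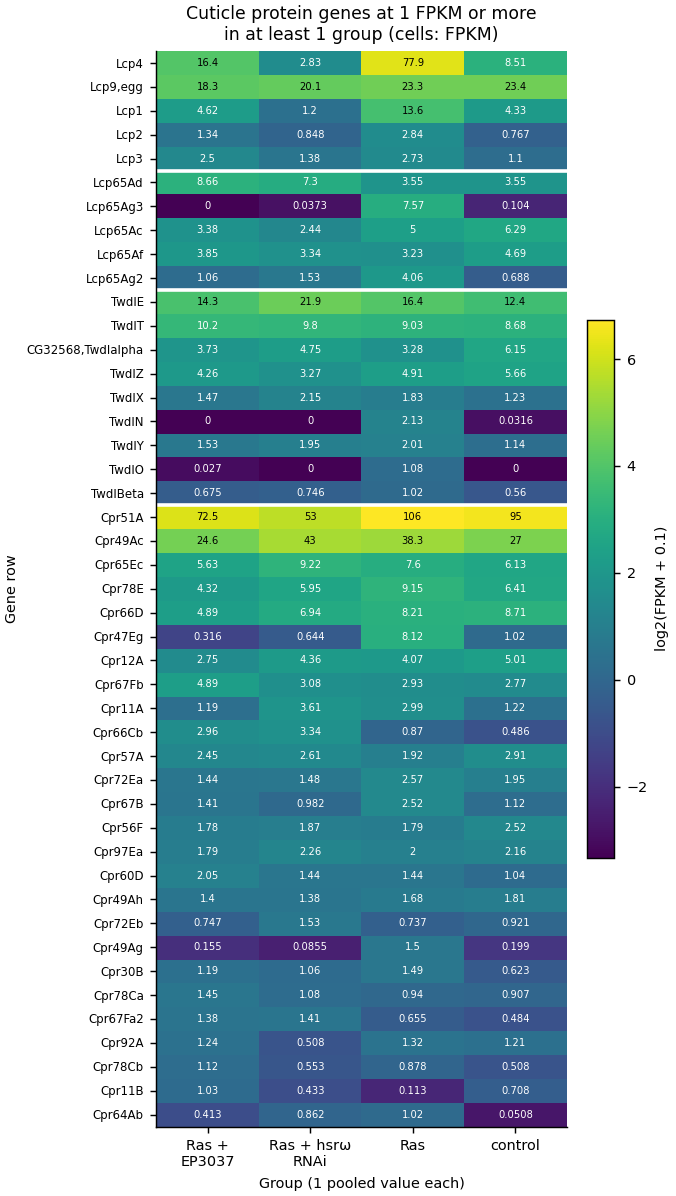
FPKM of the 45 cuticle gene rows at 1 FPKM or more in at least 1 group (rows, by subfamily, separated by white lines) in the 4 groups (columns, 1 pooled value each), with colour as log2 of FPKM plus 0.1. Lcp4 reaches 77.9 in the Ras group, and Cpr51A lies between 53.0 and 106 in all 4 groups.

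The larval cuticle gene Lcp4 (dm6, chromosome 2R, 8437647 to 8438495, plus strand) had the largest ratio of highest to lowest group among members at 1 FPKM or more in every group. It stood at 16.4 FPKM in the EP3037 group, 2.83 in the RNAi group, 77.9 in the Ras group and 8.51 in the control. It rose 9.15-fold in the Ras group over the control, and it fell below the Ras group by 4.76-fold with EP3037 and by 27.5-fold with RNAi. It rose 5.79-fold in the EP3037 group over the RNAi group, with q = 0.0192 in the authors' deposited table, and its other called differences had the smallest q of these tables, 0.00789. The 3 comparisons with the Ras group share its samples and are not independent of each other. Not called were EP3037 over control and RNAi over control, with p = 0.0247 and p = 0.0064 in the authors' deposited tables.

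Lcp1 (chromosome 2R, 8430115 to 8431243, minus strand) followed the same order of groups with a smaller range. Its levels were 4.62 FPKM in the EP3037 group, 1.20 in the RNAi group, 13.6 in the Ras group and 4.33 in the control. The RNAi group fell 11.3-fold below the Ras group, and this was the only call of Lcp1. Ras over control (p = 0.00855) and EP3037 over Ras (p = 0.00685) missed the threshold in the authors' deposited tables, with q = 0.323 and q = 0.283.

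Lcp2 and Lcp3, the remaining genes of this group, were low and uncalled. Lcp2 was at 1.34 FPKM in the EP3037 group, 0.848 in the RNAi group, 2.84 in the Ras group and 0.767 in the control. Lcp3 was at 2.504, 1.38, 2.73 and 1.10 FPKM in the same groups. All of Lcp1 to Lcp4 were therefore highest in the Ras group, while the lowest group was RNAi for Lcp1 and Lcp4 and the control for Lcp2 and Lcp3. These genes are close paralogs, and how reads shared among them were assigned is uncertain. The fifth row, Lcp9,egg, held both Lcp9 and egg, a histone methyltransferase gene, so that its 18.3 FPKM in the EP3037 group, 20.1 in the RNAi group, 23.3 in the Ras group and 23.4 in the control cannot be given to Lcp9.

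**Figure D2:**
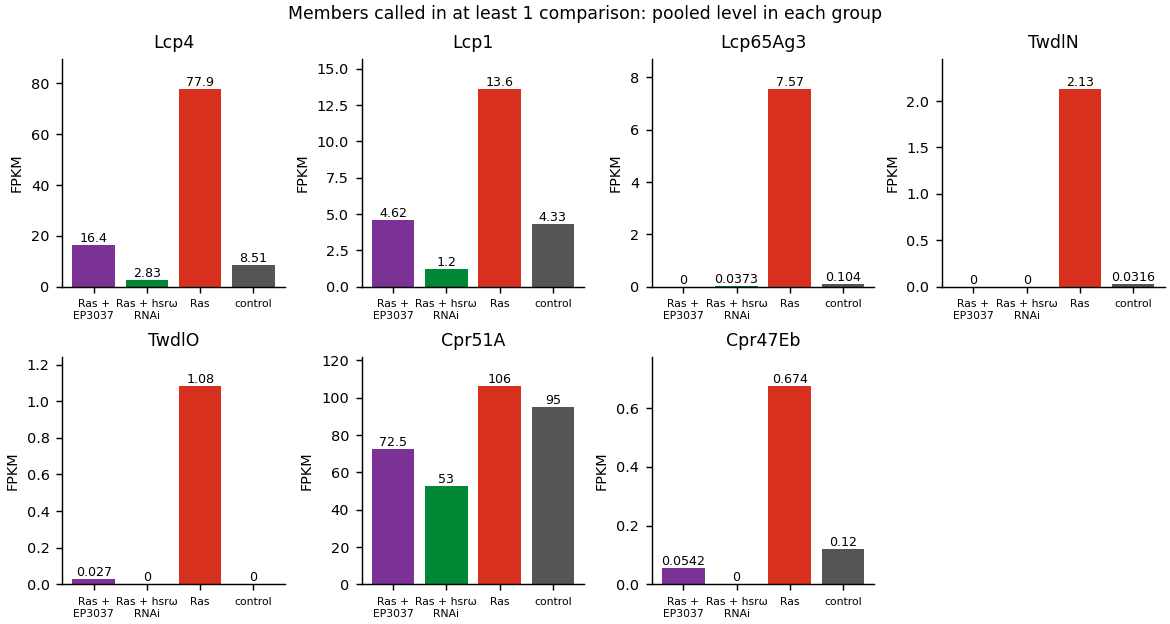
FPKM of the 7 cuticle genes called in at least 1 comparison, in the EP3037, RNAi, Ras and control groups from left to right (bars, 1 pooled value each, axes from 0 and scaled per gene). The Ras bar is the highest in each of the 7 panels, from 0.674 FPKM for Cpr47Eb to 106 FPKM for Cpr51A.

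In the Lcp65A family 5 of 10 rows reached 1 FPKM in some group, 2 were at 0 throughout, and 5 were tested in at least 1 comparison. Lcp65Ag3 (chromosome 3L, 6130386 to 6130989, minus strand) was listed at 0 in the EP3037 group and stood at 0.0373 FPKM in the RNAi group, 7.57 in the Ras group and 0.104 in the control. Its fall in the EP3037 group relative to Ras was called; for this and every called cuticle gene with no q beside it, q was 0.00789 in the authors' deposited table. RNAi over Ras had p = 0.0828 and Ras over control p = 0.236 in the authors' deposited tables, and both were uncalled. Its exons overlap an annotated antisense RNA, and the copies Lcp65Ag1 to Lcp65Ag3 are near-identical, so its separate level is uncertain.

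Lcp65Ag2, one of these copies, was also highest in the Ras group. It was at 1.06 FPKM in the EP3037 group, 1.53 in the RNAi group, 4.06 in the Ras group and 0.688 in the control, with p = 0.00865 for Ras over control in the authors' deposited table and no call. Other genes of the family did not share this order. Lcp65Ad was at 8.66 FPKM in the EP3037 group, 7.30 in the RNAi group, 3.55 in the Ras group and 3.55 in the control, uncalled in every comparison. Lcp65Ac was highest in the control, at 3.38, 2.44, 5.00 and 6.29 FPKM, and Lcp65Af lay between 3.23 and 4.69 FPKM.

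Among the Twdl genes 9 of 25 rows reached 1 FPKM, 11 were tested in at least 1 comparison and 2 were called. TwdlE (chromosome 2L, 7857957 to 7860839, minus strand, exons overlapping lectin-28C) was the most abundant, at 14.3 FPKM in the EP3037 group, 21.9 in the RNAi group, 16.4 in the Ras group and 12.4 in the control. It was not called; its smallest p was 0.0046, for RNAi over control in the authors' deposited table. TwdlT was even across the groups, at 10.2, 9.80, 9.03 and 8.68 FPKM in the same order. TwdlZ was at 4.26, 3.27, 4.91 and 5.66 FPKM in the same groups, and the row CG32568,Twdlalpha, which holds a second gene, at 3.73, 4.75, 3.28 and 6.15 FPKM. Both were highest in the control and uncalled.

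The called Twdl genes were at 0.0316 FPKM or less outside the Ras group. TwdlN (chromosome 3R, 26631869 to 26632956, plus strand) was listed at 0 in the EP3037 and RNAi groups, reached 2.13 FPKM in the Ras group and was at 0.0316 in the control. TwdlO (chromosome 3R, 26625932 to 26626738, minus strand) was at 0.0270 FPKM in the EP3037 group, listed at 0 in the RNAi group and in the control, and at 1.08 in the Ras group. TwdlN fell in the EP3037 and RNAi groups relative to Ras. TwdlO rose in the Ras group over the control and fell in the RNAi group relative to Ras. These calls were made where the other group was listed at 0. Where it held a trace of signal, the same Ras levels were not called, with p = 0.186 for TwdlN in Ras over control and p = 0.123 for TwdlO in EP3037 over Ras in the authors' deposited tables. Of the 13 calls on members in all, 6 were against a group listed at 0 and 7 had both groups above 0.

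The Cpr genes held the most abundant cuticle transcript of the discs, Cpr51A (chromosome 2R, 14512559 to 14515211, minus strand, its span overlapping CG30197). It was at 72.5 FPKM in the EP3037 group, 53.0 in the RNAi group, 106 in the Ras group and 95.0 in the control. The RNAi group was lowest, 2.00-fold below the Ras group (q = 0.0140 in the authors' deposited table) and 1.79-fold below the control (q = 0.0240 in the authors' deposited table). Ras over control was not called (p = 0.495 in the authors' deposited table). The EP3037 group lay between RNAi and the rest, uncalled, with p = 0.02495 against Ras and p = 0.0408 against RNAi in the authors' deposited tables. With the dependence of fold change on transcript length removed, the log2 change was -0.73 against Ras, in place of -1.002, and -0.72 against the control, in place of -0.84. The first was then uncalled (adjusted q = 0.165) and the second called (adjusted q = 0.0437). The longest annotated transcript of Cpr51A has 651 nt.

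Cpr49Ac (chromosome 2R, 12386666 to 12390057, plus strand) came second, with a different order. It was at 24.6 FPKM in the EP3037 group, 43.0 in the RNAi group, 38.3 in the Ras group and 27.0 in the control. The smallest p was 0.0008, for EP3037 over RNAi in the authors' deposited table, and it was not called (q = 0.0664). Cpr11A, at 1.19, 3.61, 2.99 and 1.22 FPKM in the same groups, shared this split of EP3037 and control low against RNAi and Ras high, and had p = 0.00085 for EP3037 over RNAi in the authors' deposited table. Cpr65Ec was at 5.63, 9.22, 7.60 and 6.13 FPKM and Cpr78E at 4.32, 5.95, 9.15 and 6.41 FPKM in the same groups, and neither had a call. Cpr66D was at 4.89, 6.94, 8.21 and 8.71 FPKM, Cpr12A at 2.75, 4.36, 4.07 and 5.01 FPKM, and Cpr67Fb at 4.89, 3.08, 2.93 and 2.77 FPKM in the same groups. Cpr66D and Cpr12A were highest in the control and Cpr67Fb in the EP3037 group, all without a call.

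Several low Cpr genes were highest in the Ras group. Cpr47Eb (chromosome 2R, 11255167 to 11255983, plus strand) was at 0.0542 FPKM in the EP3037 group, listed at 0 in the RNAi group, at 0.674 in the Ras group and 0.120 in the control, and its fall in the RNAi group relative to Ras was called. Cpr47Eg, in the same cluster, was at 0.316 FPKM in the EP3037 group, 0.644 in the RNAi group, 8.12 in the Ras group and 1.02 in the control. Its 12.6-fold gap between the RNAi group and the Ras group had p = 0.00215 and q = 0.132 in the authors' deposited table and was not called. Cpr49Ag was at 0.155, 0.0855, 1.503 and 0.199 FPKM in the same groups, again without a call.

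Cpr66Cb, like Lcp65Ad and Cpr67Fb above, was higher in both hsrω groups than in Ras and control, and was picked for this after its values were seen. It was at 2.96 FPKM in the EP3037 group, 3.34 in the RNAi group, 0.870 in the Ras group and 0.486 in the control. Cpr66Cb was not called, with q = 0.114 for RNAi over control and q = 0.175 for EP3037 over control in the authors' deposited tables. Among cuticle genes outside the naming rule, and picked after their values were seen, Edg78E, an ecdysone-dependent pupal cuticle gene, was at 5.71 FPKM in the EP3037 group, 5.65 in the RNAi group, 2.12 in the Ras group and 1.40 in the control. Its q was 0.163 for RNAi over control and 0.209 for EP3037 over control in the authors' deposited tables.

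Activated Ras was set against the control to ask what it changes by itself. Of 55 tested members 2 were higher, Lcp4 and TwdlO, and 0 were lower by Cuffdiff, against 46 higher (0.418%) and 39 lower (0.355%) of all 10996 tested rows. With p not adjusted and a threshold of 0.05, 10 members were higher and 0 lower, where 3.37% of all tested rows were higher and 1.26% lower. The median log2 change over the 53 members above 0 in both groups was 0.44, and that of all tested rows was 0.05. By subfamily the median was 1.65 for the 5 Lcp rows, 0.00 for Lcp65A, 0.57 for Twdl and 0.38 for Cpr. The Ras group was above the control in 40 of 55 tested members, which is 72.7%, and in 57.9% of all tested rows. TwdlN, TwdlO, TwdlF, Lcp65Ag3, Cpr47Eb and Cpr49Ag were highest in the Ras group and tested only in the 3 comparisons with it. They may have been tested only because of their Ras level, so their direction may have been fixed in advance. They enter the counts of these comparisons and, where above 0 in both groups, the medians, and give no separate evidence there.

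The RNAi group was set against the Ras group to ask what the construct against hsrω changes when Ras is active. Of 56 tested members 6 were lower, Lcp4, Lcp1, Cpr51A, TwdlN, TwdlO and Cpr47Eb, against 0.569% of all 10897 tested rows. The last 3 were listed at 0 in the RNAi group and were tested only in comparisons with the Ras group, where they are highest. By Cuffdiff 0 members were higher, against 0.174% of all tested rows, and with p not adjusted, at the same threshold of 0.05, 1 was higher (Cpr66Cb) and 11 lower, against 1.35% and 3.85% of all tested rows. The median log2 change of the members, -0.05, lay near that of all tested rows, -0.02. By subfamily the median was -1.74 over 5 Lcp rows, -1.03 over 5 of Lcp65A, 0.04 over 8 of Twdl and -0.00 over 35 of Cpr. A difference between subfamilies was not tested. Of the Lcp65A rows 0 were called, and they include Lcp65Ag3, tested only in comparisons with the Ras group.

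The EP3037 group was set against the Ras group with the same question for raised hsrω. Of 57 tested members 3 were lower, Lcp4, Lcp65Ag3 and TwdlN, against 0.606% of all 11062 tested rows. The last 2 were listed at 0 in the EP3037 group and were tested only in comparisons with the Ras group, where they are highest. By Cuffdiff 0 members were higher, against 0.181%. With p not adjusted, 2 were higher (Lcp65Ad and Cpr66Cb) and 11 lower, against 1.73% and 4.16% of all tested rows. The median log2 change was -0.31 over the members and -0.05 over all tested rows. The EP3037 group was below Ras in 39 of 57 tested members and in 6275 of all 11062 tested rows. The 39 include the genes named above that were tested only in comparisons with the Ras group. The median was -1.08 for the Lcp rows, -0.16 for Lcp65A, -0.22 for Twdl and -0.29 for Cpr.

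EP3037 over RNAi sets the groups with opposite labels for hsrω against each other. Of 52 tested members 1 was higher, Lcp4, against 0.219% of all 10981 tested rows, and 0 were lower by Cuffdiff, against 1.52%. With p not adjusted, 4 were higher and 3 lower, against 3.07% and 6.37%. Adjusted within this comparison alone, 2 members were lower. The median log2 change was -0.08 over the members and 0.02 over all tested rows.

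Against the control, the RNAi group had 1 member lower of 50 tested, Cpr51A, where 0.603% of all 10952 tested rows were lower, and 0 higher by Cuffdiff, where 1.11% were. With p not adjusted, 5 were higher and 4 lower, against 5.72% and 3.01%. The EP3037 group had 0 of 50 tested members called against the control by Cuffdiff, where 0.254% of all 11039 tested rows were higher and 0.39% lower. With p not adjusted, 4 were higher and 1 lower, against 1.82% and 1.7%. The medians were 0.15 for RNAi over control and 0.21 for EP3037 over control, with -0.00 and -0.01 over all tested rows. Restricted to members at 1 FPKM or more on average over the 4 groups, they were -0.11 and -0.04.

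**Figure D3:**
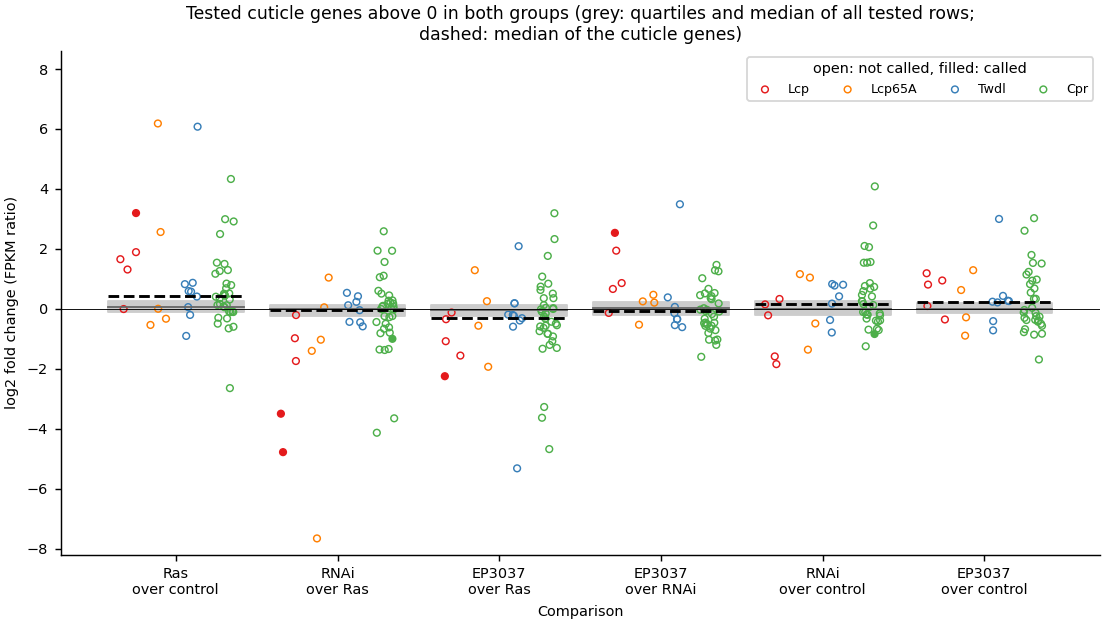
log2 fold change of each tested cuticle gene above 0 in both groups (points, by subfamily, filled where called) in the 6 comparisons, with the quartiles and median of all tested rows in grey and the members' median dashed. The members' median lies at 0.44 for Ras over control and -0.31 for EP3037 over Ras; genes listed at 0 in a group cannot be drawn, so 6 of the 13 calls are absent.

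Summed over all 15904 rows, FPKM were 735792 in the EP3037 group, 718773 in the RNAi group, 935250 in the Ras group and 729836 in the control. Such a sum leans on the most abundant rows: the largest single value was 22267, 27538, 60358 and 22043 FPKM in the same groups. The median over all rows was 2.64, 2.59, 2.62 and 2.41 FPKM, and was thus not highest in the Ras group. The summed level of all members was 250.2 FPKM in the EP3037 group, 248 in the RNAi group, 406 in the Ras group and 269 in the control. Without Lcp4 and Cpr51A the sums were 161, 192, 222 and 165 FPKM in the same groups.

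**Figure D4:**
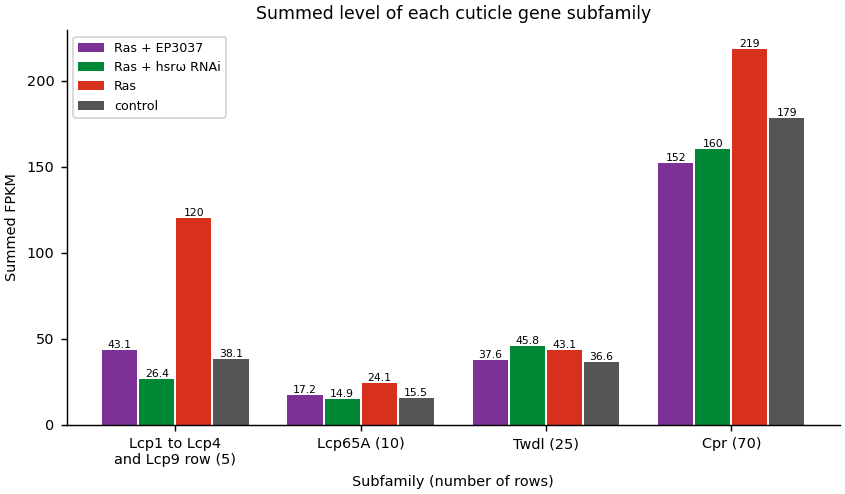
Summed FPKM of the 4 subfamilies (bars from 0, number of rows in brackets) in the EP3037, RNAi, Ras and control groups. The Lcp rows sum to 120 FPKM in the Ras group and to 43.1, 26.4 and 38.1 in the EP3037, RNAi and control groups, while the Twdl sums lie between 36.6 and 45.8.

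Many cuticle genes lie in clusters, and the 65A, 47E and 49A symbols carry the chromosome band, so that these clusters partly repeat the naming. Lcp1 to Lcp4 occupy 8.38 kb of chromosome 2R (8430115 to 8438495), and all 4 were highest in the Ras group, with summed levels of 24.8 FPKM in the EP3037 group, 6.26 in the RNAi group, 97.1 in the Ras group and 14.7 in the control. Neighbours within 10 kb that are not cuticle genes did not share this order: the signalosome subunit gene CSN7 lay between 46.7 and 48.7 FPKM, and the P450 gene Cyp4e2 was at 18.6, 14.04, 17.9 and 20.6 FPKM in the same groups.

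On chromosome 3R a run of 12 Twdl genes spans 21.9 kb (26619118 to 26641054). TwdlN and TwdlO lie within it, with TwdlK and TwdlJ between them. TwdlK was listed at 0 in every group, and TwdlJ had 0.168 FPKM with Ras and was at 0 in the others. The run summed to 0.209 FPKM in the EP3037 group, 0.418 in the RNAi group, 3.73 in the Ras group and 0.0973 in the control, and 5 of its 11 genes above 0 were highest in the Ras group. In the 65A cluster on chromosome 3L, 17 Lcp65A and Cpr65A rows span 31.2 kb (6130386 to 6161589), and 5 of the 13 rows above 0 were highest in the Ras group. In the other clusters the Ras group was the highest for 3 of 7 rows at 47E, 2 of 8 at 49A, 2 of 4 at 64A and 1 of 4 from TwdlX to Twdlalpha. Within 10 kb of the 47E cluster, some genes outside the naming rule were also highest in the Ras group and others were not. CG9067 was at 15.9, 13.5, 24.5 and 15.5 FPKM in the EP3037, RNAi, Ras and control groups, and Vhl at 5.28, 4.97, 5.97 and 6.32 FPKM. All of Lcp65Ag1 to Lcp65Ag3 were among the 5 rows of the 65A cluster highest in the Ras group, and their neighbour Lcp65Af was highest in the control. Of all rows at 1 FPKM or more in some group, 26.8% were highest in the Ras group. The cluster counts also hold rows below 1 FPKM, such as TwdlH at 0.0662 FPKM in the Ras group.

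**Figure D5:**
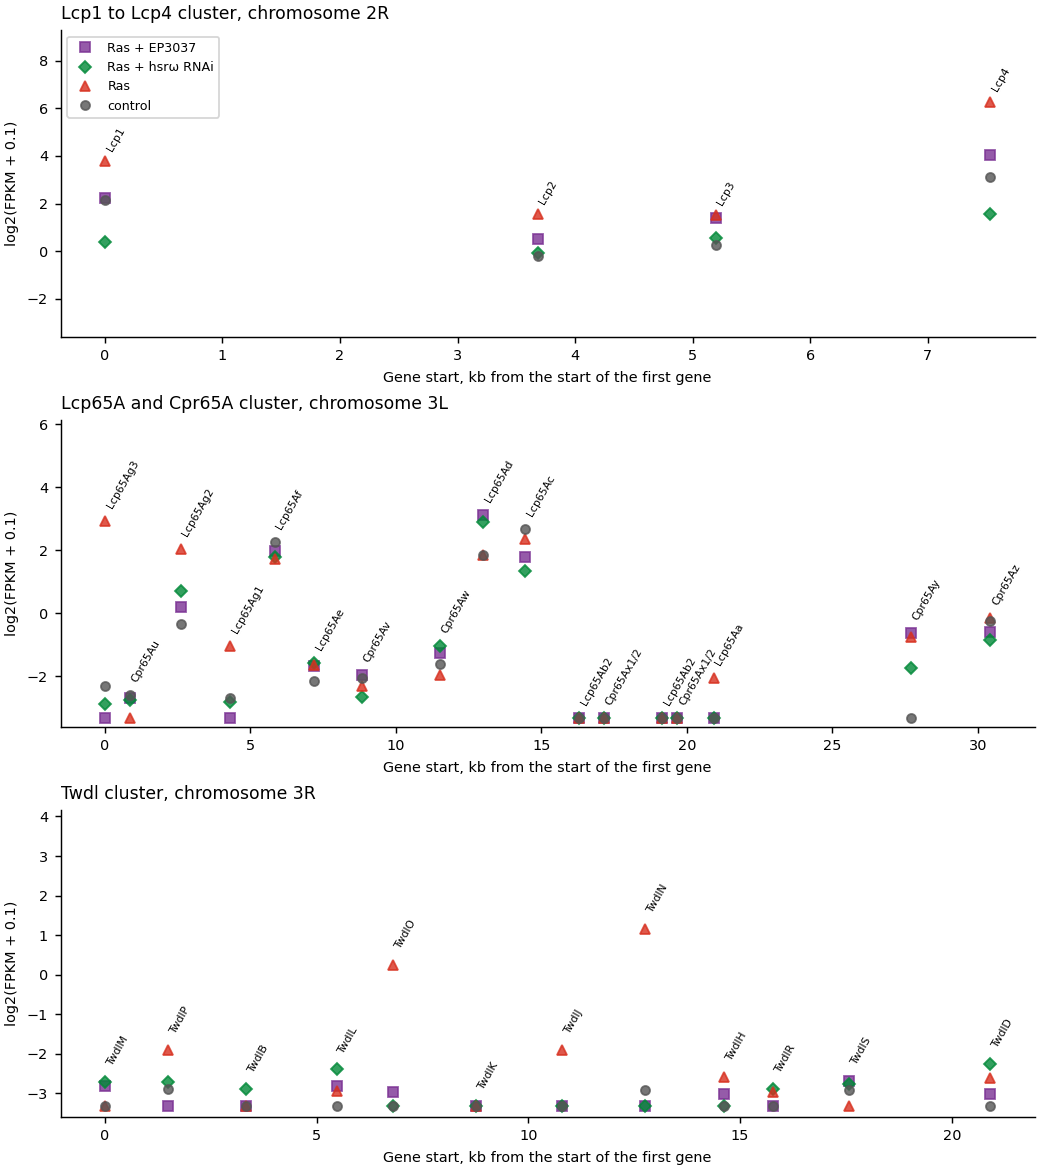
Level of each gene in 3 cuticle gene clusters (log2 of FPKM plus 0.1, vertical) against the distance of its start from the first gene of the cluster in kb (horizontal), with 1 symbol per group. All 4 genes of the Lcp1 to Lcp4 cluster are highest in the Ras group, whereas in the 65A cluster 5 of 13 rows above 0 are.

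Members were short genes, with a median longest transcript of 871.5 nt and 2 exons, against 1494 nt and 3 exons over all rows. Fold changes had a trend with transcript length in each comparison. For RNAi over Ras the trend had a median of -0.21 at the members' lengths and -0.04 over all rows. With it subtracted, the members' median log2 change for that comparison was 0.10 in place of -0.05, whereas for Ras over control it was 0.31 and for EP3037 over Ras -0.22. Lcp4 and Lcp1 were still called lower in RNAi over Ras, with adjusted q of 1.37e-18 and 4.09e-07 from a normal approximation. The smallest p of the authors' test was 5e-05, so the size of these q goes beyond what that test resolved. The approximation can also depart from it: Lcp65Ag3 in Ras over control had an adjusted q of 0.00101, against p = 0.236 in the authors' deposited table.

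Other genes of the cuticle were read from 4 lists. Of 20 other cuticle protein rows, between 8 and 11 were tested in each comparison and 0 were called by Cuffdiff. Over all tested rows the share called in a direction was between 0.174% and 1.52%. With p not adjusted, no comparison had more than 1 of these rows in either direction. Pcp, a pupal cuticle protein, was even, between 10.2 and 11.03 FPKM. The chitin list, 26 rows with 24 tested, had no call in the comparisons with the Ras group by Cuffdiff. With p not adjusted, 3 were higher and 1 lower for Ras over control, against 3.37% and 1.26% of all tested rows. For RNAi over Ras 0 were higher and 1 lower, against 1.35% and 3.85%. For EP3037 over Ras 0 were higher and 5 lower, against 1.73% and 4.16%. The chitin synthase gene kkv lay between 43.4 and 55.9 FPKM.

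All 5 calls on the chitin list were in EP3037 over RNAi (3 lower), EP3037 over control (1 lower) or RNAi over control (1 higher). Over all tested rows these shares were 1.52%, 0.39% and 1.11%. The chitin deacetylase gene serp was at 59.4 FPKM in the EP3037 group, 95.4 in the RNAi group, 79.3 in the Ras group and 101 in the control, and its EP3037 level fell below that of RNAi and of control (q = 0.0359 and q = 0.0140 in the authors' deposited tables). The deacetylase gene verm was at 106 FPKM in the EP3037 group, 176 in the RNAi group, 145 in the Ras group and 140 in the control, and was called only in EP3037 over RNAi, lower (q = 0.0284 in the authors' deposited table). The chitinase gene Cht6 was at 11.1 FPKM in the EP3037 group, 22.1 in the RNAi group, 20.6 in the Ras group and 11.6 in the control; it fell in EP3037 relative to RNAi and rose in RNAi over control (q = 0.0399 and q = 0.0438 in the authors' deposited tables). Of 20 rows for tanning and pigment, 1 was called, ple, which encodes tyrosine hydroxylase, at 3.502 FPKM in the RNAi group and 1.39 in the control (q = 0.0240 in the authors' deposited table). In that comparison 18 of the 20 rows were tested, and 1.11% of all tested rows were higher.

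Regulators of the ecdysone response, which time cuticle gene expression, had 3 of 16 tested rows higher in Ras over control and 3 of 16 lower in EP3037 over Ras. Over all tested rows these shares were 0.418% and 0.606%. In RNAi over Ras 0 of 16 were called by Cuffdiff, against 0.174% higher and 0.569% lower. With p not adjusted, 3 were higher in Ras over control, 1 higher in RNAi over Ras and 5 lower in EP3037 over Ras. Over all tested rows these shares were 3.37%, 1.35% and 4.16%. Likewise 7 were lower in EP3037 over RNAi and 6 higher in RNAi over control, against 6.37% and 5.72%. Blimp-1, a transcriptional repressor that times ftz-f1 after the ecdysone pulse, was at 13.4 FPKM in the EP3037 group, 32.9 in the RNAi group, 31.04 in the Ras group and 13.0 in the control. Blimp-1 rose in Ras over control and fell in EP3037 over Ras, and any link of it to Lcp4 was not tested. Hr4 was at 7.30, 20.2, 17.0 and 5.40 FPKM in the same groups, and the row CG12912,Hr46 at 9.08, 18.1, 22.4 and 7.92 FPKM. The remaining called regulators were Eip75B, lower in EP3037 over RNAi and higher in RNAi over control, and vvl, lower in EP3037 over Ras.

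The labels give no step that separated disc cells from attached tissue, and fewer cells of a type cannot be told apart from less RNA per cell. Markers of 7 other tissues or disc parts were therefore summed beside the cuticle genes. Ring gland markers (phm, spok, nvd, dib and sad, enzymes of ecdysone synthesis) had their highest sum in the Ras group. They summed to 55.0 FPKM in the EP3037 group, 58.8 in the RNAi group, 145 in the Ras group and 112 in the control. Of the 5, dib was instead highest in the control, at 3.47 FPKM against 2.98 in the Ras group. The genes spok, phm and nvd were called lower than Ras in both the EP3037 and RNAi groups, against 0.606% and 0.569% of all tested rows. Against the control, phm and spok were called lower in the EP3037 group and spok and nvd in the RNAi group. Over all tested rows these shares were 0.39% and 0.603%. In Ras over control 4 of the 5 were higher, where 57.9% of all tested rows were, with a median log2 change of 0.36 and no call. Any part of ring gland tissue in the Lcp4 level was not tested. Larval epidermis markers (sha, ovo, f and mwh) summed to 50.2, 55.0, 50.3 and 52.6 FPKM in the same groups with no call, nearly all of it from ovo at 47.7 to 51.7 FPKM, and sha, which acts in the epidermal cells that form denticles, was at 0.0997 FPKM or less in each group.

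Tracheal markers (trh, btl, dys, bnl, vvl and pio) summed to 138, 172, 177 and 156 FPKM in the same groups, mostly from pio, and trh, the defining factor, was in a row at 0.264 to 0.599 FPKM. Peripodial and antennal markers (Dll, dan, danr, ss, hth and Ubx) summed to 428, 468, 453 and 433 FPKM with no call. Most of each sum came from hth, at 298 to 318 FPKM, and Ubx was at 0.194 FPKM or less. Fat body markers were highest in the control, with sums of 23.0, 9.42, 18.4 and 50.8 FPKM, and so were muscle markers, with 74.95, 51.5, 75.4 and 93.4 FPKM. Of 6 fat body markers, 4 were called lower in Ras over control, 5 in RNAi over control and 3 in EP3037 over control. In RNAi over Ras 1 was lower, and in EP3037 over RNAi 3 were higher. Of 5 muscle markers, 4 were called lower in RNAi over control. Over all tested rows the share called in a direction was between 0.174% and 1.52%. The haemocyte sum was highest in RNAi, with 107, 173, 74.8 and 83.4 FPKM, mostly from PPO1 and PPO2 (81.3 and 64.7 FPKM in RNAi). In RNAi over Ras 5 of 6 haemocyte markers were called higher (Hml, the row CR45660,Pxn, eater, PPO1 and PPO2), against 0.174% of all tested rows. In RNAi over control 2 were called higher, PPO1 and PPO2, and 1 lower, against 1.11% and 0.603%. The lower one was NimC1, at 0.529 FPKM in RNAi, 0.322 in the Ras group and 2.20 in the control (q = 0.0325 in the authors' deposited table). The part of these tissues in the levels of the cuticle genes was not tested.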

How the data were processed

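Total RNA of eye discs was sequenced as stranded, rRNA-depleted, paired-end libraries, per the labels' protocols. Cuffdiff 2.1.1, Cufflinks, TopHat and Bowtie with the build dm6 are listed in the submitters' processing notes; the annotation and filters were not stated there. The authors deposited 6 pairwise tables with 1 FPKM per gene and group, pooled by Cuffdiff over the group's samples, so the depth is unknown. Each also holds the authors' log2 fold change, a score (the test's statistic), a p-value and a q-value, per the file headers; the deposited q-values matched a Benjamini-Hochberg adjustment over all 6 tables together. The log2 column holds other text where a group is at 0. The RNAi group entered with 4 inputs for 3 samples, per the deposited sample columns.

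Members and lists were chosen with earlier results of these data known. Levels, fold changes (ratio of deposited FPKM), counts and medians were computed with Python 3.11.15, pandas 2.3.3 and statsmodels 0.14.6. A call needs status OK and q at or under 0.05 in the authors' test. Named members were every called one, the 4 most abundant of Lcp, Twdl and Cpr and those listed at 0 in 1 group and at 1 FPKM or more in another; others were chosen after their values were seen. Coordinates (dm6, counted from 1), strand, exons and transcript lengths are from Ensembl release 115 (BDGP 6), which placed 109 of 110 rows. The length trend was a lowess fit (fraction 0.3) of log2 change on log10 length over all tested rows, with the deposited statistic rescaled to a normal score and adjusted within the comparison; this was tested on simulated data. Strand use in counting was not stated, so reads of overlapping, antisense and near-identical genes are uncertain.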

Additional observations from a re-analysis of the deposited data

How the results depend on the processing

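Counts of called members in the 6 comparisons, 12 counts with both directions, were recomputed under 7 settings. The filter of 1 FPKM in at least 1 of the groups compared and the use of rows naming 1 gene left all 12 within 1.5 times. At a q of 0.01, 0 members were higher in EP3037 over RNAi (1 as reported) and 0 lower in RNAi over control (1 as reported). Adjusted within the comparison, 2 were lower in EP3037 over RNAi in place of 0. With the length trend subtracted, which also replaced the deposited p by a normal approximation adjusted within the comparison, 4 were higher in Ras over control, 1 higher in RNAi over Ras, 2 lower in EP3037 over RNAi, 2 higher in RNAi over control and 1 higher in EP3037 over control. The same normal approximation with no trend subtracted, an alternative chosen after the data were seen, gave 5 higher in Ras over control, 2 higher and 2 lower in EP3037 over RNAi, 2 higher in RNAi over control and 1 higher in EP3037 over control. At an unadjusted p of 0.05, the higher and lower counts were 10 and 0 for Ras over control, 1 and 11 for RNAi over Ras, 2 and 11 for EP3037 over Ras, 4 and 3 for EP3037 over RNAi, 5 and 4 for RNAi over control, and 4 and 1 for EP3037 over control. The members' median log2 change turned sign with the trend subtracted for RNAi over Ras (0.10) and, restricted to 1 FPKM on average, for RNAi over control (-0.11) and EP3037 over control (-0.04). Without Cpr51A the summed FPKM were 178, 195, 300.1 and 174 in the EP3037, RNAi, Ras and control groups. The cause of these shifts was not tested. No paired analysis was possible because the deposited values are pooled per group, and leaving out a replicate could not be run for the same reason. Without values per sample, no depth limit or interval could be set, and genes below 1 FPKM rest on an unknown number of reads.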
